A study of Mus musculus with 12 samples.

Results

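The expression of 10 genes of the retinoid (visual) cycle was compared in *Pias3+/+* and *Pias3-/-* mouse retina. The genes were chosen by their known role, with earlier results of these data known, and were taken by name from the count table, where they make up 10 of its 24062 genes. All 10 were found, and all 10 passed the filter on low values in each comparison. They were grouped by the cell type in which each is known to act. *Abca4*, *Rdh8*, *Rdh12* and *Rbp3* are 4 genes of photoreceptors, *Rlbp1* is a gene of Müller glia, and *Rpe65*, *Lrat*, *Rdh5*, *Rgr* and *Stra6* are 5 genes of the retinal pigment epithelium (RPE).

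The retinoid cycle restores the light-sensitive chromophore of the opsins. Light turns cis-retinal into all-trans-retinal in the photoreceptor outer segment, where it is cleared and reduced to all-trans-retinol. The retinol then crosses to the RPE, where it is esterified, isomerized and oxidized back to cis-retinal. The RPE lies against the outer segments and is not a part of the neural retina, so that the amount that stays attached can differ from one dissection to another.

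Each library was made from 2 frozen retinas of C57Bl6/J mice, and there were 3 libraries for each genotype at P21 (postnatal day 21) and 3 at 18 months, 12 in all. The *Pias3-/-* line lacks exons 2 to 5 of *Pias3*, which encodes an E3 SUMO ligase, in all tissues. It is a germline line that arose when *Rx*-Cre recombined the floxed allele in oocytes. The authors deposited raw counts per gene, with totals between 11607155 and 25622505 per library. *Pias3* itself was lower in *Pias3-/-* retina at P21 (log2 fold change -0.71, FDR 0.0346) and at 18 months (log2 fold change -0.84, FDR 0.00458, quasi-likelihood F test of edgeR, Benjamini-Hochberg adjusted). All 12 libraries held the 12 rod markers examined, with summed levels between 20280 and 36670 FPKM (fragments per kilobase of counted exon, scaled to the size of the library by TMM over the 12 libraries). At 18 months all 3 *Pias3+/+* libraries had high *Xist* counts and all 3 *Pias3-/-* libraries had *Ddx3y* counts, so that sex and genotype cannot be told apart at that age. At P21 each genotype held libraries of both kinds, but not in equal number. *Pias3+/+* replicates 1 and 3 and *Pias3-/-* replicate 3 had high *Xist* counts, and the others had *Ddx3y* counts. The mix thus also differed between ages within each genotype, and its part in the comparisons of age was not tested. The *Pias3-/-* replicate 2 at 18 months held lens RNA, with a summed level of 8 lens markers of 7246 FPKM against 5.53 to 61.6 FPKM in the other 5 libraries of that age.

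The genes lie on 6 chromosomes of mm10. *Abca4* (chr3:122044460-122180061), *Rpe65* (chr3:159599181-159625307) and *Lrat* (chr3:82892582-82903974) share chromosome 3 with *Pias3* and lie 25.3, 62.9 and 13.8 Mb from it. Whether sequence of the targeted chromosome beyond *Pias3* stayed in the line was not tested. No gene of the 10 shares exon bases on either strand with another gene of the table.

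Levels of the 10 genes spanned more than 2 orders of magnitude. In *Pias3+/+* retina at P21, *Rbp3* was highest at 952 ± 83.2 FPKM (SD, n = 3), followed by *Rdh12* at 399 ± 31.4 FPKM. *Abca4* (204 ± 11.0 FPKM) and *Rlbp1* (204 ± 12.6 FPKM) overlapped, and *Rdh8* stood at 76.9 ± 8.52 FPKM. Genes of the RPE followed, with *Rgr* at 49.6 ± 8.14, *Rpe65* at 21.6 ± 5.87, *Rdh5* at 13.0 ± 0.772, *Stra6* at 3.68 ± 0.255 and *Lrat* at 3.00 ± 0.890 FPKM. Besides *Abca4* and *Rlbp1*, *Stra6* and *Lrat* overlapped, and no other neighbours in this order did. The 5 genes of the RPE were thus the 5 lowest, as they were in each of the other 3 groups. In every library each gene had at least 36 counts, against a floor of 3 counts.

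**Figure D1:**
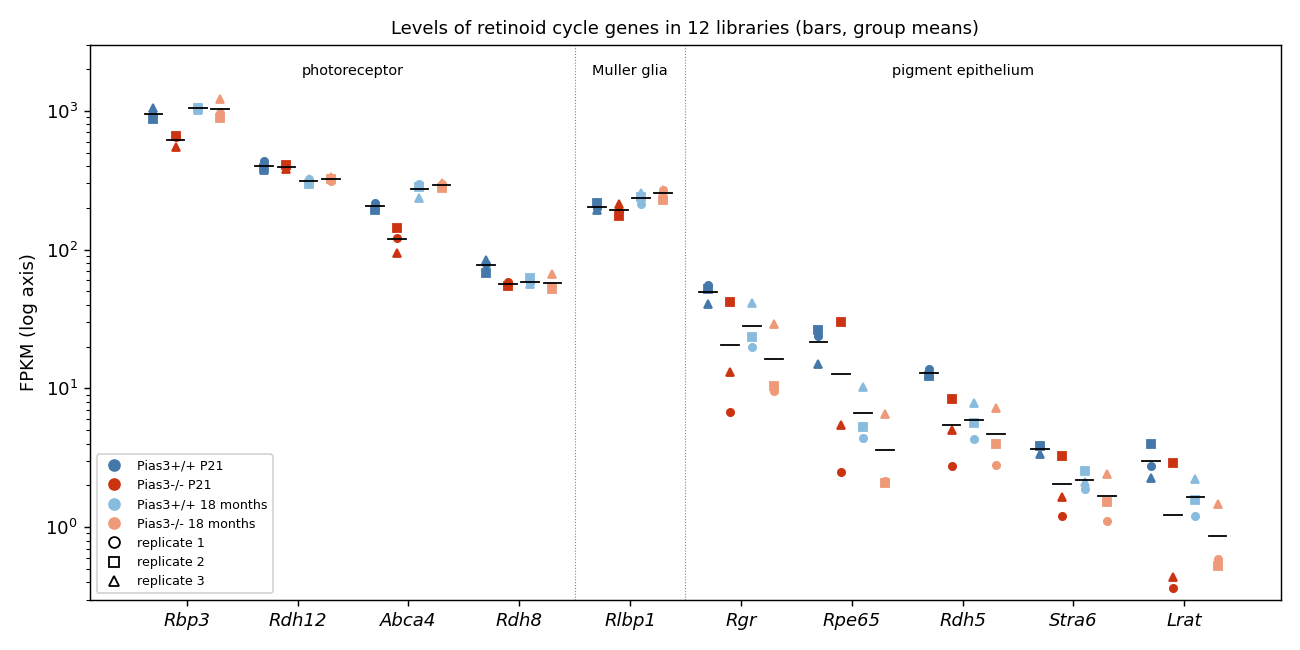
Level of each retinoid cycle gene in FPKM (log axis) in each of the 12 libraries, with genotype and age by colour, replicate number by symbol and the mean of each group as a bar. Photoreceptor genes and *Rlbp1* lie between 51.8 and 1221 FPKM, with a coefficient of variation within a group of 2.43% to 20.1%, and genes of the pigment epithelium between 0.366 and 55.9 FPKM, with one of 5.955% to 119%.

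The spread between libraries also differed between the cell types. Over the 12 libraries the highest value was 1.47 times the lowest for *Rdh12*, 1.54 times for *Rlbp1*, 1.63 times for *Rdh8*, 2.21 times for *Rbp3* and 3.17 times for *Abca4*. For genes of the RPE it was 3.45 times for *Stra6*, 5.01 times for *Rdh5*, 8.29 times for *Rgr*, 10.9 times for *Lrat* and 14.4 times for *Rpe65*. Among the 3 *Pias3-/-* libraries at P21 alone, *Rpe65* differed 11.96-fold and *Rdh12* 1.08-fold.

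Photoreceptor genes were compared between genotypes at P21. The promoters of *Abca4* and *Rbp3*, whose levels differed most, and of *Rdh8* and *Rdh12*, are shown to compare their sequence. Each runs 5′ to 3′ from 250 bases before to 50 bases after the RefSeq start in GRCm38.p6, at chr3:122044210-122044509 (+ strand), chr14:33953753-33954052 (+ strand), chr9:20818244-20818543 (+ strand) and chr12:79208663-79208962 (+ strand). Capitals mark TAATCC on either strand, the core letters bound by the photoreceptor factor CRX and its relative OTX2 (GGATTA on the strand shown).
Abca4: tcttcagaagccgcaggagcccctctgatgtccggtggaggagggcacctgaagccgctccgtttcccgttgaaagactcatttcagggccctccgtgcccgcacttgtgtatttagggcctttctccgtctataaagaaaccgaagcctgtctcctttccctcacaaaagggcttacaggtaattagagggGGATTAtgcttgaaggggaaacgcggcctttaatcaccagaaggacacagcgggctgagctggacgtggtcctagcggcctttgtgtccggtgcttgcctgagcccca
Rbp3: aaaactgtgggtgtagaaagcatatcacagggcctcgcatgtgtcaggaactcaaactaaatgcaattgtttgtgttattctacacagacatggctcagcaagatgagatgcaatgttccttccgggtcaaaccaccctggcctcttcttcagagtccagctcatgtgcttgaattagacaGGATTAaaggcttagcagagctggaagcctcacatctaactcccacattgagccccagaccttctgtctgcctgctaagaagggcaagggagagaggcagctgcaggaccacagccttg
Rdh8: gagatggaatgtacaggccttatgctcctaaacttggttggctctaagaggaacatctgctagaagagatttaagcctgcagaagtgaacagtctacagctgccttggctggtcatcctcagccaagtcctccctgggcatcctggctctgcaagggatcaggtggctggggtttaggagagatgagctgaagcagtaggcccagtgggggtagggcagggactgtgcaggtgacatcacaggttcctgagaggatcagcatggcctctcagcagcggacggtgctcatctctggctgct
Rdh12: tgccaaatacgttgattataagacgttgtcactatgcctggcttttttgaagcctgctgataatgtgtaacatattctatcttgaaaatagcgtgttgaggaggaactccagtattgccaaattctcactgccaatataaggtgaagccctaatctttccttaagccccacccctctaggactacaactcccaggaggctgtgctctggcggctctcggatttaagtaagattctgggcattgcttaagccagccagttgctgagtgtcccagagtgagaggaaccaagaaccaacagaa
*Abca4* and *Rbp3* each hold 1 match, at 58 and 69 bases before the start, and the windows of *Rdh8* and *Rdh12* hold none. Of 32851 mouse promoters of this length, 7.06% hold the letters on either strand.

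*Rbp3* encodes the retinoid-binding protein of the space between photoreceptors and RPE. Its level was 940.1, 875 and 1040 FPKM in the *Pias3+/+* libraries at P21 and 648, 661 and 551 FPKM in the *Pias3-/-* libraries. The 3 *Pias3-/-* values were all below the *Pias3+/+* values. The log2 fold change was -0.62 (SE 0.103, FDR 0.0401, quasi-likelihood F test of edgeR, Benjamini-Hochberg adjusted), or 1.54-fold lower. *Rbp3* was the 1 gene of the 10 to pass an FDR of 0.05 at P21, where 1.17% of 12109 tested genes passed.

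*Abca4*, the flippase of the disc rim that clears retinal from the disc lumen, had 216, 194 and 204 FPKM in *Pias3+/+* retina. In *Pias3-/-* retina it had 121, 143 and 94.6 FPKM. The genotypes did not overlap, and the log2 fold change was -0.78 with a 95% interval of -1.13 to -0.44, but the FDR was 0.0582. *Rdh8*, the outer segment enzyme that reduces all-trans-retinal, showed the same separation with a smaller difference. It had 78.8, 67.7 and 84.4 FPKM in *Pias3+/+* and 58.2, 54.7 and 57.3 FPKM in *Pias3-/-* retina (log2 fold change -0.45, SE 0.0946, FDR 0.0825).

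*Rdh12*, a retinal reductase of the photoreceptor inner segment, stood apart from the other 3. Levels of 434, 390.3 and 373 FPKM in *Pias3+/+* and 392, 409.9 and 381 FPKM in *Pias3-/-* retina overlapped (log2 fold change -0.02, 95% interval -0.23 to 0.18, FDR 0.929 by the same test). The ratio of *Abca4* to *Rdh12* within a library, which does not depend on normalization between libraries, was 0.498, 0.497 and 0.546 in *Pias3+/+* and 0.307, 0.348 and 0.248 in *Pias3-/-* retina. Ratios of *Rdh8* and of *Rbp3* to *Rdh12* did not overlap between genotypes either, whereas ratios among *Abca4*, *Rdh8* and *Rbp3* did. Of 12108 tested genes, 19.7% did not overlap between genotypes relative to *Rdh12*. Ratios were computed after the values were seen and were not tested.

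Rod genes differed in the same direction. At P21 all 12 rod markers had a log2 fold change below zero, with a median of -0.35 against 0.00 over all tested genes, and 3 of 12 passed the test, against 1.17% of all tested genes. They included *Gnat1*, the rod transducin (log2 fold change -0.63, FDR 0.0163), and *Nr2e3*, a rod transcription factor (-0.58, FDR 0.0435). Of 10 cone markers 1 passed, *Cngb3*, a cone channel subunit (-1.16, FDR 0.0227, quasi-likelihood F test of edgeR). In whole retina, fewer cells of a type and less RNA per cell cannot be told apart.

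Fold changes at P21 also varied with the counted length of the gene. The median log2 fold change was 0.105 for genes of up to 1500 bases and -0.10 for the 1754 genes of 5000 to 8000 bases, which include *Rbp3* (5276 bases) and *Abca4* (7248 bases). *Rdh12* (1674 bases) and *Rdh8* (1450 bases) are short. With a correction for length, chosen after seeing the data, the log2 fold change was -0.65 for *Abca4* (FDR 0.00795), -0.54 for *Rbp3* (FDR 0.0168) and -0.52 for *Rdh8* (FDR 0.0309), all by the quasi-likelihood F test. Scaling by library size alone put *Rbp3* at -0.53 (FDR 0.0593), so that its call was lost. With 1 library left out, *Rbp3* was called in 2 of the 6 fits. Its FDR there reached 0.214, with log2 fold changes from -0.68 to -0.54 over the 6 fits. DESeq2's Wald test called *Abca4* (adjusted p = 9.19e-05), *Rdh8* (0.00319), *Rbp3* (1.24e-05) and, of the RPE genes, *Rdh5* (0.00626).

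**Figure D2:**
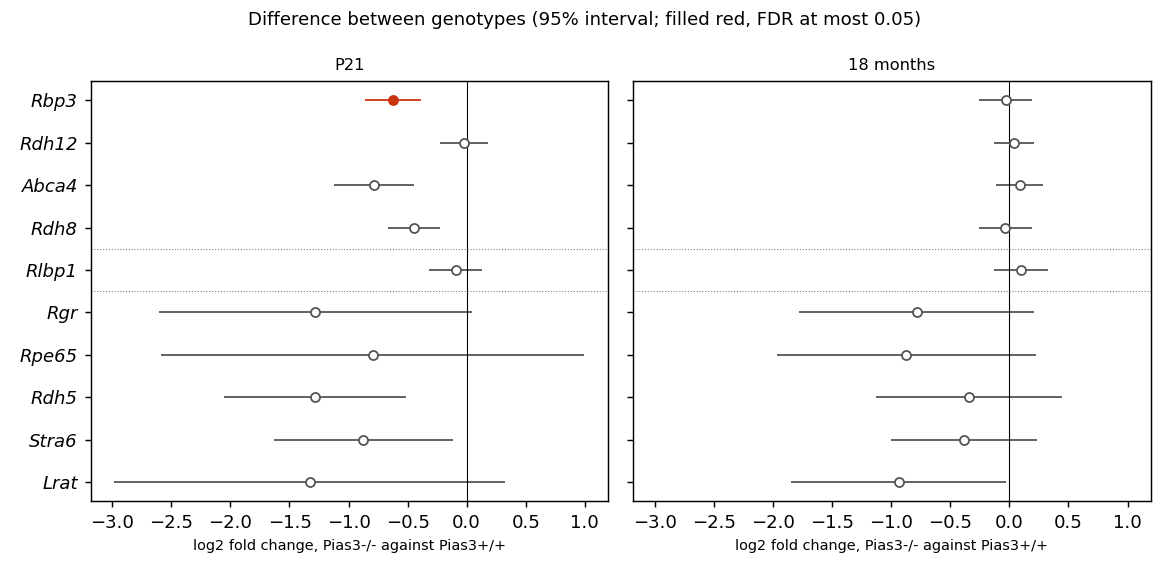
Log2 fold change of *Pias3-/-* against *Pias3+/+* retina with its 95% interval for each gene at P21 (left) and 18 months (right), filled red where the FDR was at most 0.05. At P21 all 10 estimates lie below 0 and *Rbp3* is called, and at 18 months no gene is called.

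*Rlbp1* encodes a protein that binds cis-retinoids in Müller glia, and in the RPE as well. It had 201, 218 and 194 FPKM in *Pias3+/+* and 190.1, 175 and 212 FPKM in *Pias3-/-* retina at P21. The genotypes overlapped, with a log2 fold change of -0.09 (95% interval -0.32 to 0.13, FDR 0.681). None of 10 Müller glia markers passed an FDR of 0.05 at P21, and their median log2 fold change was 0.00. Replicate 2 of *Pias3-/-*, the highest of its group for the 5 genes below, was the lowest for *Rlbp1*.

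Genes of the RPE were next compared at P21. *Rpe65* encodes the isomerase of the cycle. It had 23.8, 26.2 and 15 FPKM in *Pias3+/+* retina and 2.51, 30.0 and 5.45 FPKM in *Pias3-/-* retina. Replicate 2 of *Pias3-/-* was thus above all 3 *Pias3+/+* libraries, and replicates 1 and 3 were below them.

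*Rgr* encodes an opsin of the RPE and Müller glia that binds all-trans-retinal. Its levels were 55.9, 52.4 and 40.4 FPKM in *Pias3+/+* and 6.75, 42.0 and 13.2 FPKM in *Pias3-/-* libraries. *Lrat*, the acyltransferase that makes retinyl esters, had 2.76, 3.98 and 2.25 against 0.366, 2.89 and 0.437 FPKM. For *Rgr* and *Lrat*, as for *Rpe65*, replicate 2 of *Pias3-/-* fell within the *Pias3+/+* range or above it.

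*Rdh5*, the dehydrogenase that makes cis-retinal from cis-retinol, had 13.8, 12.3 and 12.7 FPKM in *Pias3+/+* and 2.76, 8.39 and 5.05 FPKM in *Pias3-/-* retina. *Stra6*, the receptor through which the RPE takes up vitamin A, had 3.82, 3.83 and 3.38 FPKM in *Pias3+/+* and 1.19, 3.26 and 1.64 FPKM in *Pias3-/-* retina. For *Rdh5* and *Stra6* the genotypes did not overlap, and replicate 2 was again the highest *Pias3-/-* library.

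All 10 genes had an estimate below 0 at P21, as did 49.8% of tested genes, but none of the 5 passed the test. Log2 fold changes were -0.80 for *Rpe65* (SE 0.770, FDR 0.659), -1.28 for *Rgr* (SE 0.569, FDR 0.313), -1.33 for *Lrat* (SE 0.712, FDR 0.397), -1.28 for *Rdh5* (SE 0.330, FDR 0.120) and -0.88 for *Stra6* (SE 0.326, FDR 0.238). At an unadjusted p of 0.05, *Rdh5* and *Stra6* passed, as did *Abca4*, *Rdh8* and *Rbp3*, which makes 5 of 10 against 16.8% of all tested genes. These same 5 were the genes whose genotypes did not overlap, against 26.5% of all tested genes. *Rdh5* was called by DESeq2's Wald test (log2 fold change -1.27, FDR 0.00626) and by edgeR's likelihood ratio test (FDR 0.0108), and by none of the other 10 alternatives that kept all 6 libraries.

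The P21 comparison of the RPE genes depended most on 1 library. Without *Pias3-/-* replicate 2, all 5 passed an FDR of 0.05 by the quasi-likelihood F test of edgeR, with log2 fold changes of -2.43 for *Rpe65* (FDR 0.0148), -2.89 for *Lrat* (FDR 0.00471), -2.31 for *Rgr* (FDR 0.0071), -1.72 for *Rdh5* (FDR 0.0115) and -1.37 for *Stra6* (FDR 0.00897). *Abca4* (-0.93, FDR 0.01) and *Rbp3* (-0.67, FDR 0.0185) passed in the same fit, so that 7 of 10 genes were called. That fit called 621 of 12048 tested genes, against 142 of 12109 with all 6 libraries. With any 1 of the other 5 libraries left out, between 0 and 2 of the 10 genes were called. Log2 fold changes in those fits came up to -0.30 for *Rpe65*, -0.88 for *Lrat*, -0.85 for *Rgr*, -0.96 for *Rdh5* and -0.60 for *Stra6*.

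Markers of the RPE outside the retinoid cycle varied with these genes among the *Pias3-/-* libraries at P21. The summed level of 10 such genes, mostly of the pigment pathway, was 35.4, 23.1 and 30.4 FPKM in *Pias3+/+* libraries and 12.7, 32.4 and 18.8 FPKM in *Pias3-/-* libraries, replicate 2 being again the highest of the latter. Among *Pias3+/+* libraries replicate 2 had the lowest marker sum and the highest *Rpe65* and *Lrat*. All 10 were above 0 in each P21 library. *Dct*, the most abundant, had 15.3, 11.3 and 13.7 against 6.22, 17.3 and 9.46 FPKM. *Best1*, a marker at low levels, did not follow the sum, with 0.188, 0.396 and 0.179 against 0.157, 0.423 and 0.416 FPKM. Over the 6 libraries Pearson's r of the markers with the 5 genes was between 0.87 (*Lrat*, exact permutation p = 0.0431) and 0.95 (*Rgr*, exact permutation p = 0.0153), and Spearman's rho was between 0.60 (exact permutation p = 0.242) and 0.83 (exact permutation p = 0.0583). Without *Pias3-/-* replicates 1 and 3, which lay farthest from the median of the markers, r was between -0.61 and 0.10, so that the relation rests on those libraries. An unadjusted p of at most 0.05 was reached by 2.81% of 12448 genes (350 genes) in this permutation test, and an FDR of 0.05 by 0 genes, a level that permutations of 6 libraries can hardly reach over so many genes. Photoreceptor genes had positive values at P21 as well, from r = 0.45 for *Rdh12* to 0.71 for *Abca4* (rho 0.77), and *Rlbp1* was at -0.10. Over all 12 libraries r of the markers with the 5 genes was between 0.25 (*Lrat*) and 0.50 (*Rdh5*). With the mean of the markers as a covariate, none of the 10 genes was called at P21, in a fit that called 13 of 12109 tested genes. Log2 fold changes there were -0.15 for *Rpe65*, -0.76 for *Lrat*, -0.75 for *Rdh5*, -0.62 for *Rgr* and -0.40 for *Stra6*, and -0.66 for *Abca4*, -0.45 for *Rdh8* and -0.59 for *Rbp3*. Lens markers also had lower means in *Pias3-/-* retina at P21, within overlapping sums, with a summed level of 8 genes of 58.4, 296 and 131 FPKM in *Pias3+/+* and 62.9, 29.3 and 11.0 FPKM in *Pias3-/-* libraries. All 5 that were tested had an estimate below 0 (median -2.20) and none was called, and all 8 were above 0 in each P21 library except 1 at 0 in *Pias3-/-* replicate 3. *Pias3-/-* replicate 2 did not have the highest summed level of its group for the lens markers, and their part in the result was not tested.

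**Figure D3:**
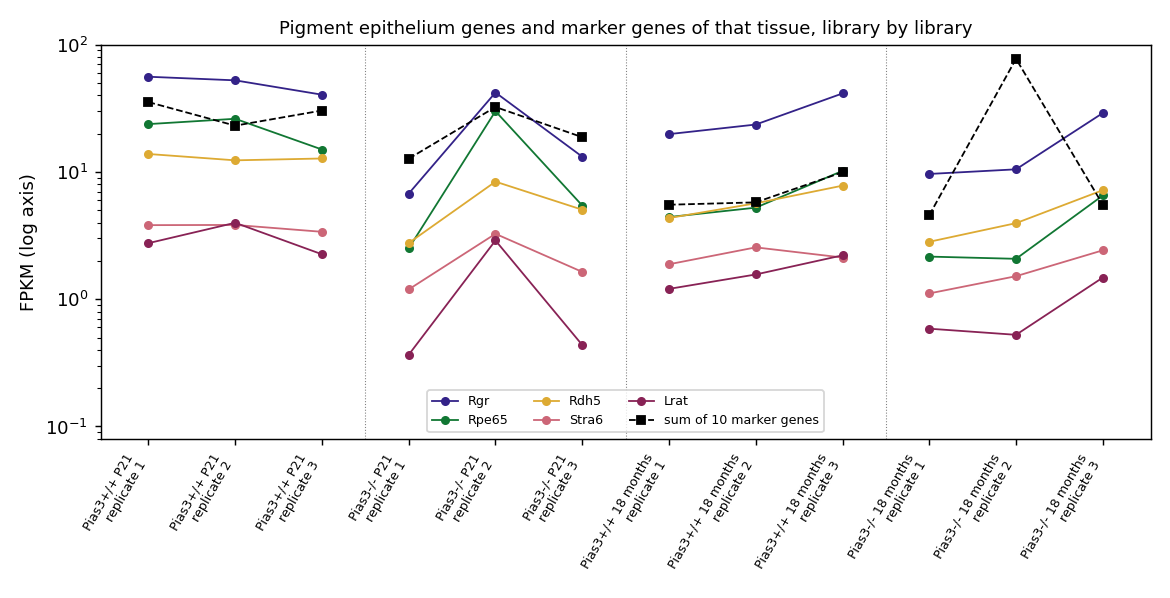
Level in FPKM (log axis) of the 5 genes of the pigment epithelium and summed level of 10 marker genes of that tissue (black, dashed) in each library, with lines joining values within a group. All curves are highest in replicate 2 among the *Pias3-/-* libraries of P21, and they part in *Pias3-/-* replicate 2 at 18 months, where the markers reach 77.4 FPKM and *Rpe65* 2.08 FPKM.

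At 18 months the genotypes overlapped for all 10 genes, whereas 15.9% of tested genes did not overlap. *Abca4* had 298, 283 and 236 FPKM in *Pias3+/+* and 295, 278 and 299.8 FPKM in *Pias3-/-* retina (log2 fold change 0.09, 95% interval -0.12 to 0.29). *Rbp3* had 1060, 1052 and 1013 against 967, 894 and 1221 FPKM (log2 fold change -0.03, 95% interval -0.26 to 0.19).

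*Rdh8* had 57.6, 62.4 and 56.3 FPKM in *Pias3+/+* and 54.8, 51.8 and 66.9 FPKM in *Pias3-/-* retina at 18 months. *Rdh12* had 323, 295 and 321 against 311, 323 and 335 FPKM. *Rlbp1* had 213, 239 and 256 against 267, 227 and 269 FPKM. Log2 fold changes of these 3 lay between -0.04 and 0.10, with intervals that all included 0.

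The 5 genes of the RPE had lower means in *Pias3-/-* retina at 18 months too, within wide spreads. *Rpe65* had 4.42, 5.24 and 10.2 FPKM in *Pias3+/+* and 2.16, 2.08 and 6.53 FPKM in *Pias3-/-* retina (log2 fold change -0.87, 95% interval -1.97 to 0.22). *Rgr* had 19.8, 23.6 and 41.4 against 9.64, 10.5 and 29.0 FPKM (log2 fold change -0.79). *Lrat* had 1.21, 1.56 and 2.21 against 0.587, 0.525 and 1.48 FPKM (log2 fold change -0.94). In both genotypes replicate 3 was the highest library for these 3 genes.

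*Rdh5*, with 4.34, 5.67 and 7.80 against 2.83, 3.96 and 7.19 FPKM, was also highest in replicate 3 of both genotypes. *Stra6* had 1.88, 2.55 and 2.13 against 1.11, 1.52 and 2.42 FPKM. No gene of the 10 passed an FDR of 0.05 at 18 months by the quasi-likelihood F test of edgeR or by DESeq2's Wald test, where 0.273% of 12068 tested genes passed the former. *Lrat* was the 1 gene with an unadjusted p within 0.05 (its FDR was 0.529), a level reached by 9.27% of tested genes. It reached the filter of 2 FPKM at 18 months only in *Pias3+/+* replicate 3 (2.21 FPKM), so it was tested only through the group with the higher mean. Without the library that held lens RNA, no gene was called either.

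That library set the RPE genes and the pigment markers apart. *Pias3-/-* replicate 2 had the highest marker sum of all 12 libraries at 77.4 FPKM, against 4.57 to 9.94 FPKM in the other 5 of its age. *Dct* reached 40.0 FPKM, *Mlana* 13.2 FPKM and *Tyrp1* 10 FPKM there. Yet *Rpe65* had its lowest value of the 12 libraries, and *Lrat* and *Rgr* were close to those of *Pias3-/-* replicate 1. Not all markers rose in that library. *Best1* (0.395 FPKM), *Mitf* (1.89 FPKM) and *Slc45a2* (0.0812 FPKM) lay within the range of the other 5 libraries of that age. Within 18 months r between the markers and the 5 genes was between -0.34 and 0.02. *Mlana* was at 0 in *Pias3+/+* replicate 2, and the other 9 markers were above 0 in every library.

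Age was compared within each genotype in a fit of all 12 libraries, with the quasi-likelihood F test of edgeR and Benjamini-Hochberg adjustment. In *Pias3+/+* retina 3 of 10 genes passed, against 18.2% of 12448 tested genes. *Abca4* rose from 204 to 272 FPKM (log2 fold change 0.41, FDR 0.0494), *Rdh8* fell from 76.9 to 58.8 FPKM (-0.40, FDR 0.0187) and *Rdh12* fell from 399 to 313 FPKM (-0.36, FDR 0.00698). All 3 are photoreceptor genes. Ages did not overlap for 7 of the 10 genes, these 3 among them, against 44.4% of all tested genes. *Rbp3* (0.12, FDR 0.496) and *Rlbp1* (0.20, FDR 0.191) were not called. *Rdh12* was called with each library left out in turn, *Rdh8* in 2 of those 6 fits and *Abca4* in 1.

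In *Pias3-/-* retina 4 of 10 genes passed, against 27.1% of tested genes. *Abca4* rose 2.41-fold from 119 ± 24.0 to 291 ± 11.2 FPKM (SD, n = 3, log2 fold change 1.27, FDR 4.29e-05), and *Rbp3* rose 1.64-fold from 620.4 ± 60.1 to 1027 ± 171 FPKM (0.71, FDR 0.000702). *Rlbp1* rose from 192 to 254 FPKM (0.39, FDR 0.0132) and *Rdh12* fell from 394 to 323 FPKM (-0.30, FDR 0.0114). *Rdh8* was at 56.7 and 57.8 FPKM (0.01, 95% interval -0.21 to 0.23). Ages did not overlap for these 4 genes, against 37% of tested genes. *Abca4*, *Rbp3* and *Rdh12* passed with each *Pias3-/-* library left out in turn, and *Rlbp1* in 5 of those 6 fits. Fitted on the 6 *Pias3-/-* libraries alone, *Rdh12* lost its call (FDR 0.0507), as did *Rlbp1* with scaling by library size (FDR 0.0712). The P21 *Pias3-/-* libraries are shared with the comparison of genotypes at P21, so the low *Abca4* and *Rbp3* values there enter both.

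**Figure D4:**
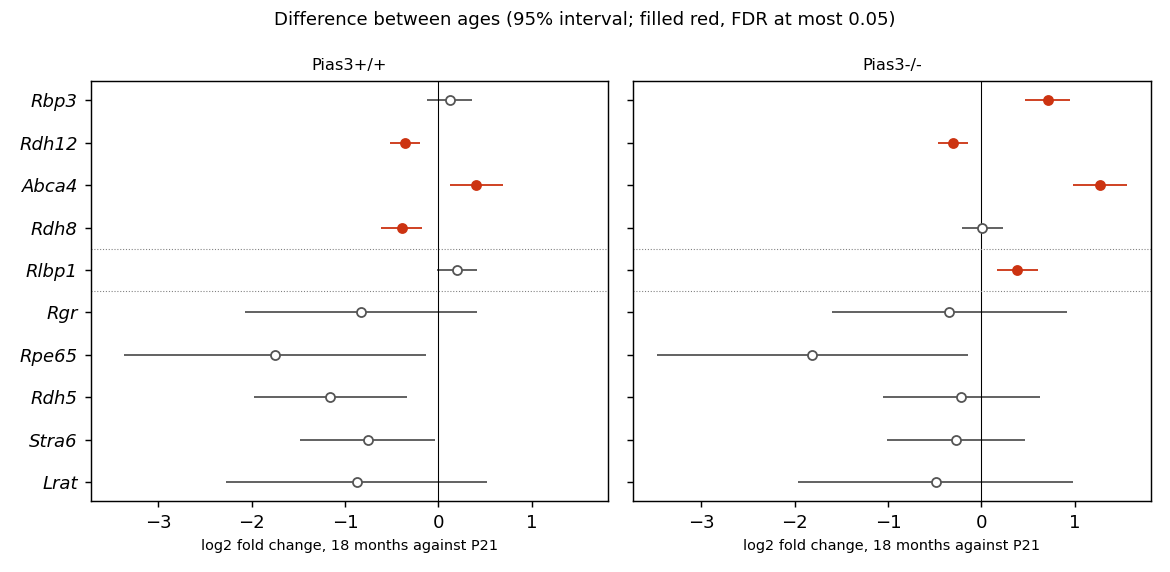
Log2 fold change of 18 months against P21 with its 95% interval for each gene in *Pias3+/+* (left) and *Pias3-/-* retina (right), filled red where the FDR was at most 0.05. *Abca4* is above 0 and *Rdh12* below 0 in both genotypes, and none of the 5 genes of the pigment epithelium is called in either.

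*Rdh12* and *Abca4* were the 2 genes of the 10 whose 6 libraries of each age did not overlap, in opposite directions, against 17.5% of all tested genes. *Rdh12* had 373 to 434 FPKM at P21 and 295 to 335 FPKM at 18 months, whichever the genotype. The ratio of *Abca4* to *Rdh12* accordingly lay between 0.248 and 0.546 at P21 and between 0.736 and 0.959 at 18 months. *Abca4* to *Rdh8* went from a range of 1.65 to 2.87 to one of 4.20 to 5.38, and *Rdh8* to *Rbp3* from 0.0773 to 0.104 to 0.0544 to 0.0593. Of all tested genes, 34% did not overlap between ages when set relative to *Rdh12*, 10.2% relative to *Rdh8* and 15.4% relative to *Rbp3*. Of 12 rod markers, 10 rose with age in *Pias3-/-* retina and 4 in *Pias3+/+* retina, with none called lower in either, where 27.1% and 18.2% of all tested genes were called in either direction.

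The 5 genes of the RPE had lower means at 18 months in both genotypes, and none was called. In *Pias3+/+* mice the log2 change with age was -1.75 for *Rpe65* (FDR 0.124), -1.16 for *Rdh5* (FDR 0.0512), -0.88 for *Lrat* (FDR 0.386), -0.83 for *Rgr* (FDR 0.35) and -0.76 for *Stra6* (FDR 0.134). The other 4 of the 7 genes without overlap between ages were of this group, *Rgr* being the exception. *Rdh5* was called under 8 of 11 alternatives that left out no library of this genotype, DESeq2's Wald test (FDR 0.0166) and edgeR's likelihood ratio test (FDR 0.0238) among them, and in none of the 6 fits without 1 library. For *Pias3-/-* mice the values were -1.81 for *Rpe65* (FDR 0.1) and between -0.49 and -0.21 for the other 4, and every gene overlapped between ages. *Rpe65* was called there by edgeR's likelihood ratio test (FDR 0.0454) and in 1 of the 6 fits without 1 library. It was also called with the mean of the 5 genes, itself included, as a covariate (-0.80, FDR 0.00139, quasi-likelihood F test). Without *Pias3-/-* replicate 2 of P21 these 4 turned to values above 0 (*Lrat* 1.09, *Rgr* 0.69, *Rdh5* 0.23, *Stra6* 0.23, none called) and *Rpe65* was at -0.17. Fitted on the 6 *Pias3+/+* libraries alone, all 5 were called, as were 3669 of 12109 tested genes, with *Rdh5* at an FDR of 0.000935 and *Rpe65* at 0.0012 (the quasi-likelihood F test of edgeR). The marker sum was lower in the same libraries, going from 23.1 to 35.4 FPKM at P21 to 5.52 to 9.94 FPKM at 18 months in *Pias3+/+* retina, with *Pmel* passing the test (-3.95, FDR 0.0183). Of 6 markers tested there, 5 had an estimate below 0, and *Mitf* was at 0.33. In *Pias3-/-* retina 5 of 6 were above 0 (median 0.43) and none was called. Marker sums in that genotype were 12.7, 32.4 and 18.8 FPKM at P21 and 4.57, 77.4 and 5.54 FPKM at 18 months. The part of attached tissue in the RPE genes was not tested.

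Ratios of the RPE genes to each other were also taken within a library. The ratio of *Rpe65* to *Rgr* was 0.425, 0.499 and 0.371 in *Pias3+/+* and 0.371, 0.714 and 0.414 in *Pias3-/-* libraries at P21. At 18 months it was 0.223, 0.222 and 0.246 in *Pias3+/+* and 0.224, 0.198 and 0.225 in *Pias3-/-* libraries. The 6 libraries of each age did not overlap. *Rpe65* to *Lrat* went from between 6.56 and 12.5 at P21 to between 3.35 and 4.61 at 18 months, again without overlap. *Lrat* to *Rgr* was between 0.0332 and 0.0760 at P21 and between 0.0501 and 0.0664 at 18 months, and overlapped. Of the 10 ratios among the 5 genes, these 2 with *Rpe65* were those that did not overlap between ages. Relative to *Rgr*, 39 of 12447 tested genes (0.313%) separated the ages in this way, and relative to *Lrat* 32 genes (0.257%). The ratios were looked at after the values were seen and are given without a test.

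**Figure D5:**
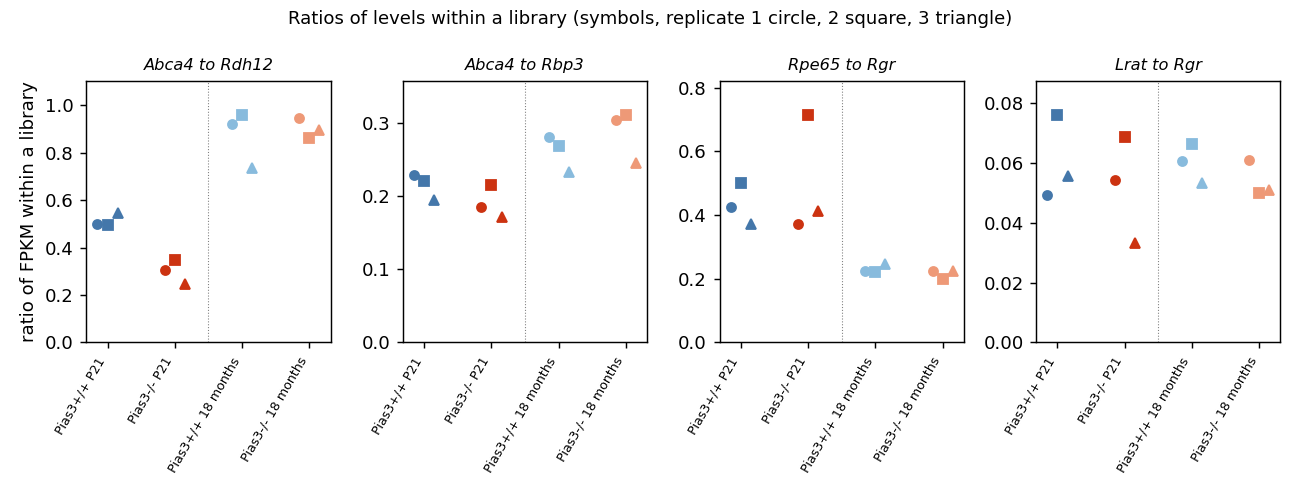
Ratio of the levels of 2 genes within each library, by group, with 1 symbol per replicate and axes from 0. *Abca4* to *Rdh12* is higher at 18 months (0.736 to 0.959) than at P21, *Rpe65* to *Rgr* is lower (0.198 to 0.246 against 0.371 to 0.714), and *Lrat* to *Rgr* overlaps between ages.

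The promoters of *Rpe65* and *Rgr*, a pair whose proportion did not overlap between ages, are shown with the same letters in capitals. The *Rpe65* window lies at chr3:159598931-159599230 (+ strand) and that of *Rgr* at chr14:37048965-37049264 (- strand), 5′ to 3′, from RefSeq in GRCm38.p6.
Rpe65: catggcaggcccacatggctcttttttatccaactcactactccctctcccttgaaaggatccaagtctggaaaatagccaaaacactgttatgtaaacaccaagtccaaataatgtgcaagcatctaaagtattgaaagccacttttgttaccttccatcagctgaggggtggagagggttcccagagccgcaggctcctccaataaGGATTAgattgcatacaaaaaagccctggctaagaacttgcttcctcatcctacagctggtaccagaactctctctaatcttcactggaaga
Rgr: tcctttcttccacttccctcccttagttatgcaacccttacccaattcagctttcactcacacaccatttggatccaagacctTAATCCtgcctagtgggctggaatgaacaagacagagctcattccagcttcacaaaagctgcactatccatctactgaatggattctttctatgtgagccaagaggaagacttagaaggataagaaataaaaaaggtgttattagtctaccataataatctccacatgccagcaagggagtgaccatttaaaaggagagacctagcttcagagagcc
*Rpe65* holds GGATTA at 42 bases before the start and *Rgr* holds TAATCC at 167 bases before it. The windows of *Lrat*, *Rdh5*, *Stra6* and *Rlbp1* hold neither. *Stra6* has 4 promoters in the source, and only the one nearest the start of the counted gene was searched. CATGTG on either strand, the core letters bound by the RPE factor MITF, is in the windows of *Rpe65*, *Rgr*, *Rlbp1* and *Rbp3* and in 14.2% of all promoters, and overlaps no TAATCC match in these windows.

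Whether the difference between genotypes differed between ages was tested as an interaction. None of the 10 genes passed an FDR of 0.05 by the quasi-likelihood F test of edgeR, Benjamini-Hochberg adjusted, where 0.209% of 12448 genes passed, and 3 reached an unadjusted p of 0.05, against 8.89% of genes. *Abca4* had the largest interaction of these 3, at 0.87 on the log2 scale (95% interval 0.46 to 1.27, FDR 0.106), followed by *Rbp3* at 0.59 (FDR 0.226) and *Rdh8* at 0.41 (FDR 0.408). *Rdh12* was at 0.06 (95% interval -0.18 to 0.29), and intervals for genes of the RPE were wide, as for *Rpe65* from -2.33 to 2.21. DESeq2's Wald test called *Abca4* and *Rbp3*, and without *Pias3-/-* replicate 2 of P21 *Abca4* was called in edgeR.

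Genes whose profile over the 12 libraries was most like that of these genes were sought among 12438 others by Pearson's r of log2 levels, as a description. The mean profile of the 4 photoreceptor genes was closest to *Mpp4* (r = 0.96), a scaffold protein of photoreceptor synapses, *Bbs1* (0.95), a protein of the cilium, *Rrp1b* (0.92), *Prom1* (0.92), a protein of outer segment discs, and *Synpo2* (0.91). That of the 5 genes of the RPE was closest to *Car12* (0.97), a carbonic anhydrase, *Col8a2* (0.96), a collagen, and *Pon1* (0.96), with *Trf*, transferrin, also among the nearest 5 (0.94), of which 4 are named here. For *Rlbp1* the nearest were *2310033P09Rik* (0.96), *Plcb3* (0.94), *Macrod1* (0.94), *Gfra2* (0.94) and *Fgf11* (0.93). Points share age, genotype and library composition.

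Of 26 other genes of retinoid handling, 25 are in the table and 15 were tested at P21, of which none passed an FDR of 0.05 by the quasi-likelihood F test of edgeR (4 of the 15 had genotypes that did not overlap, against 26.5% of all tested genes). *Scarb1*, a scavenger receptor that takes up carotenoids, came closest, with 49.8, 45.5 and 54.2 FPKM in *Pias3+/+* and 38.8, 35.0 and 38.1 FPKM in *Pias3-/-* retina (log2 fold change -0.42, FDR 0.0746). At 18 months none of 16 passed. *Dhrs3*, a retinal reductase of cones and other cells, had 52.5, 50.9 and 49.7 FPKM in *Pias3+/+* and 67.1, 63.5 and 74.96 FPKM in *Pias3-/-* retina without overlap (log2 fold change 0.41, FDR 0.137).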

How the data were processed

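RNA of 12 retinal samples, 3 per genotype and age, was sequenced by the authors as stranded paired-end reads. They aligned these with TopHat2 2.1.1 to mm10 and counted them with featureCounts, and the deposited values are raw counts for 24062 genes with a counted length per gene. The deposited tables of DEGs hold the authors' own fold changes and FDRs and were not used. The study's methods give independent biological replicates. RNA input is given as 100 ng in the design and differently in the labels.

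Tests were run with edgeR 4.0.16 (R 4.3.3, limma 3.58.1), and DESeq2 1.42.0 as an alternative. A gene was tested where 1 or more libraries of the fit reached 2 FPKM, after TMM normalization, with the quasi-likelihood F test and Benjamini-Hochberg adjustment over all tested genes. Genotypes were compared in 6 libraries per age, and ages and the interaction in 1 fit of 12. A gene was called at an FDR of at most 0.05. SE is the log2 fold change divided by the root of F. Log2 levels used a prior count of 2. Correlations used exact permutation, 2-sided, within an age. The test was checked on simulated counts.

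Some genes of the lists, and 1 of the genes nearest a profile, were counted but are not reported here by name. The members and lists were chosen with earlier results of these data known. The gene list, markers and most alternatives were fixed in writing for this work, and the named genes are the 10 members, *Pias3*, up to 4 called genes of a list and the 5 genes nearest each profile. *Dct*, *Mlana*, *Tyrp1*, *Best1*, *Mitf*, *Slc45a2*, *Scarb1* and *Dhrs3*, and *Xist* and *Ddx3y*, were named after their values were seen. Promoters came from RefSeq (GRCm38.p6), where all 10 genes matched. Depth was 11607155 to 25622505 counts per library.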

Additional observations from a re-analysis of the deposited data

How the results depend on the processing

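Of the values of the 10 genes with 1 library left out, 311 of 359 kept their direction and their side of the threshold, 14 lost and 9 gained an FDR of 0.05 and 25 changed direction, and under the other alternatives these numbers were 487 of 550, 10, 32 and 21. No called value changed direction. The cause of these shifts was not tested, unless the alternative itself shows it. The number of the 10 genes called at P21, 1 in the main analysis, was 4 by the Wald test of DESeq2 and by the likelihood ratio test, 3 with a replicate block, with all 12 libraries in 1 fit or with the correction for length, 2 without the FPKM filter, and 0 with library size alone or with the markers, the mean of the 5 genes of the RPE or *Xist* as a covariate. Calls over all tested genes at P21 moved as well. They went from 142 to 648 with DESeq2, 561 with the likelihood ratio test, 288 with the replicate block, 516 with all 12 libraries, 299 with the correction for length, 196 without the filter, 87 with library size alone, and 13, 15 and 93 with the 3 covariates in the order given. They were between 6 and 12 with *Pias3-/-* replicate 1 or a *Pias3+/+* library left out. With each library left out, the number of the 10 genes called ranged from 0 to 7 at P21 (7 without *Pias3-/-* replicate 2, 2 without *Pias3-/-* replicate 3 and 0 without any of the other 4), from 0 to 0 at 18 months, from 1 to 2 for age in *Pias3+/+*, from 3 to 5 for age in *Pias3-/-* and from 0 to 1 for the interaction. At 18 months the replicate block gave 1 (*Rgr*, -0.90, FDR 0.0298, edgeR). For age in *Pias3+/+*, where 3 were called, the markers or the mean of the RPE genes as a covariate gave 1, and the 6 libraries alone gave 8. For the interaction, where 0 were called, DESeq2 gave 2, and the likelihood ratio test and the correction for length gave 1. The covariates *Xist* and the mean of the RPE genes and the correction for length were chosen after seeing the data.

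Log2 fold changes that turned were small or belonged to the RPE genes. The mean of the RPE genes holds those genes themselves, so their values under that covariate are, as a set, centred near 0 by construction. This holds for 10 of the 21 changes of direction above. At P21, *Rdh12* was at 0.0665 with library size alone, at 0.0288 with the markers and at 0.0384 with the mean of the RPE genes as a covariate, and with the latter *Rpe65* was at 0.68 and *Lrat* at 0.0625. At 18 months, *Rdh12* was at -0.0286 and *Rbp3* at 0.0321 with the correction for length, and *Rdh8* at 0.0774, *Rbp3* at 0.10 and *Rdh5* at 0.25 with the mean of the RPE genes. That covariate put *Lrat* at 0.48 and *Rgr* at 0.32 for age in *Pias3+/+*, *Lrat* at 0.39, *Rdh5* at 0.0574 and *Rgr* at 0.26 for age in *Pias3-/-*, and *Lrat* at -0.0896 and *Rgr* at -0.05745 for the interaction. For age in *Pias3-/-*, *Rdh8* was at -0.11 with library size alone and at -0.017 with the markers. For the interaction, *Rdh12* was at -0.0351 with library size alone and *Rpe65* at 0.36 with the replicate block. With single libraries left out, ranges that crossed 0 were -0.0744 to 0.0436 for *Rdh12* at P21. At 18 months they were -0.14 to 0.0275 for *Rdh8*, -0.00084 to 0.06825 for *Rdh12* and -0.16 to 0.0469 for *Rbp3*. For age in *Pias3-/-* they were -0.10 to 0.0804 for *Rdh8*, -1.12 to 1.09 for *Lrat*, -0.66 to 0.23 for *Rdh5*, -1.04 to 0.69 for *Rgr* and -0.62 to 0.23 for *Stra6*. For the interaction they were -0.0085 to 0.10 for *Rdh12*, -0.82 to 1.57 for *Rpe65*, -0.24 to 1.95 for *Lrat* and -0.20 to 1.51 for *Rgr*.

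Libraries of the same number correlated about their group means at -0.23, 0.39 and 0.56 at P21 and at 0.37, -0.09 and 0.22 at 18 months, and not every library correlated best with its own number, so the numbers were not taken to pair the samples. The lowest count among the 10 genes was 36, for *Lrat*, which limits the precision of its values.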

Other observations

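Other retinoid genes differed with age, and were not described above. Of 17 tested, 5 rose in *Pias3+/+* retina and 4 rose in *Pias3-/-* retina, by the quasi-likelihood F test of edgeR with Benjamini-Hochberg adjustment. *Rdh1*, a retinol dehydrogenase, was between 0.206 and 0.614 FPKM in the 6 libraries of P21 and between 1.146 and 2.03 FPKM at 18 months (log2 fold change 2.67, FDR 6.31e-05 in *Pias3+/+*, and 1.66, FDR 0.000584 in *Pias3-/-*). It reached the filter of 2 FPKM only in *Pias3-/-* replicate 1 at 18 months, so it was tested only through the age at which it was high. *Rarb*, a receptor for retinoic acid that is itself induced by it, was between 1.73 and 2.41 FPKM at P21 and between 4.03 and 4.89 FPKM at 18 months (1.09, FDR 0.000219, and 1.31, FDR 3.67e-05). Neither gene overlapped between ages in either genotype, as was the case for 44.4% of tested genes in *Pias3+/+* and 37% in *Pias3-/-* retina.

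*Cyp26a1*, which degrades retinoic acid, rose in *Pias3+/+* retina (log2 fold change 1.29, FDR 0.0148 by edgeR) and was at 0.71 in *Pias3-/-* retina (FDR 0.0835). *Dhrs3* rose in both genotypes (0.31, FDR 0.0248, and 0.48, FDR 0.00155). *Scarb1* rose in *Pias3-/-* retina (0.60, FDR 0.000423) and was at 0.18 in *Pias3+/+* retina (FDR 0.178). None of the genes named here had an interaction of genotype and age that passed an FDR of 0.05.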
